A study of Sus scrofa with 6 samples.

Results

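TCF7L2, FOXO1, EBF1, IGF1R and HMGA2 are 5 regulators of adipocyte formation and growth, and their methylation was compared between the backfat of a lean and a fatty pig breed. In methylated DNA immunoprecipitation sequencing (MeDIP-seq), an antibody against methylated cytosine pulls down DNA fragments, so that more methylated CpGs collect more reads. Backfat was taken from 3 female Landrace pigs (LBF, the leaner breed) and 3 female Rongchang pigs (RBF, the fatty breed), each library being from a separate animal of 210 days that had shared housing and was fasted before slaughter. The deposited table lists 14163 differentially methylated regions (DMRs), and every DMR whose human homologue was TCF7L2, FOXO1, EBF1, IGF1R or HMGA2 was taken. This gave 8 DMRs, namely 3 in TCF7L2, 2 in HMGA2 and 1 in each of FOXO1, EBF1 and IGF1R, out of 2686 genes with a human symbol and a DMR in a gene element. The values describe whole backfat, in which a shift in the mix of cell types and a change of methylation within a cell type cannot be told apart. The table holds no expression values, so the tissue label was not checked against marker genes.

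The insulin-like growth factor 1 receptor (IGF1R) is the kinase that carries the IGF growth signal into cells, including preadipocytes. The signal passes through PI3K and AKT to FOXO1, a forkhead transcription factor that AKT keeps out of the nucleus and that restrains early steps of adipocyte differentiation. TCF7L2 binds DNA together with beta-catenin at the end of the canonical Wnt pathway, which holds preadipocytes in an undifferentiated state. EBF1 is an early B cell factor that promotes adipogenesis and is also required for B cell development. HMGA2 is a chromatin protein with AT-hook motifs that is repressed by let-7 miRNAs, and its loss gives small and lean mice.

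Over the listed regions, depth differed between the LBF and RBF libraries. The median depth over the 14163 DMRs ranged from 34.1 to 35.4 among LBF libraries and from 9.40 to 14.4 among RBF libraries. Multiplied by its CpG number, the depth of 100% of DMRs was a whole number of equal steps per library (within 0.01). Counting these steps gives the number of CpG coverages (reads summed over the CpGs of a DMR), with totals of 4142901 to 4480502 per LBF library and 1507438 to 1544023 per RBF library. With limma on log2(depth + 1), 99.5% of all DMRs had an adjusted p under 0.05, 84.5% being higher and 15.1% lower in LBF, and in 100% of them every LBF library lay on the same side of every RBF library. The table lists regions already called on these same pigs, so passing the test is a property of the table and not independent evidence that a region differs.

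Of the 8 DMRs of these genes, 3 were higher in LBF (IGF1R, EBF1 and the first DMR of TCF7L2) and 5 were lower (FOXO1, both DMRs of HMGA2 and the other two of TCF7L2). Thus 62.5% were lower in LBF, against 15.1% of all DMRs and 16.0% of the 4150 intron DMRs, of which 83.5% were higher. These backgrounds are not matched in CpG number. DMRs with at least 10 CpGs were seldom lower in LBF (134, against 3465 higher), and the 8 DMRs had 5 to 9 CpGs. The genes were picked with earlier results of these data known, and with 8 DMRs in 5 genes the share is given as a description. The median log2 fold change (LBF over RBF) was -1.06 over the 8 DMRs and 1.64 over all DMRs. An alternative scaling gave all libraries an equal median over the listed DMRs (equal library medians). It moved the median log2 fold change of all DMRs by -1.41 to 0.24, and 27.9% of all DMRs were then called, 10.9% higher and 17.0% lower. Under that scaling 0 of the 3 higher DMRs were called. The 5 lower ones were called, which the downward shift of all DMRs brings about and which is no sign of stability.

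All 8 DMRs lay in introns, and none overlapped a CpG island or its shore, where 4.43% of intron DMRs did. They were 74 to 272 bp long with 5 to 9 CpGs, the least that the table holds being 5. Their median density was 5.20 CpGs per 100 bp (2.43 to 8.11), close to the 5.21 of all intron DMRs. No library had a depth of 0 at any of the 8. A depth of 0 in at least 1 library was uncommon among intron DMRs too (280 of 4150). Only the FOXO1 DMR and, in another transcript, the IGF1R DMR were annotated to a first intron, and no promoter, exon or downstream DMR was listed for any of the 5 genes.

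**Figure D1:**
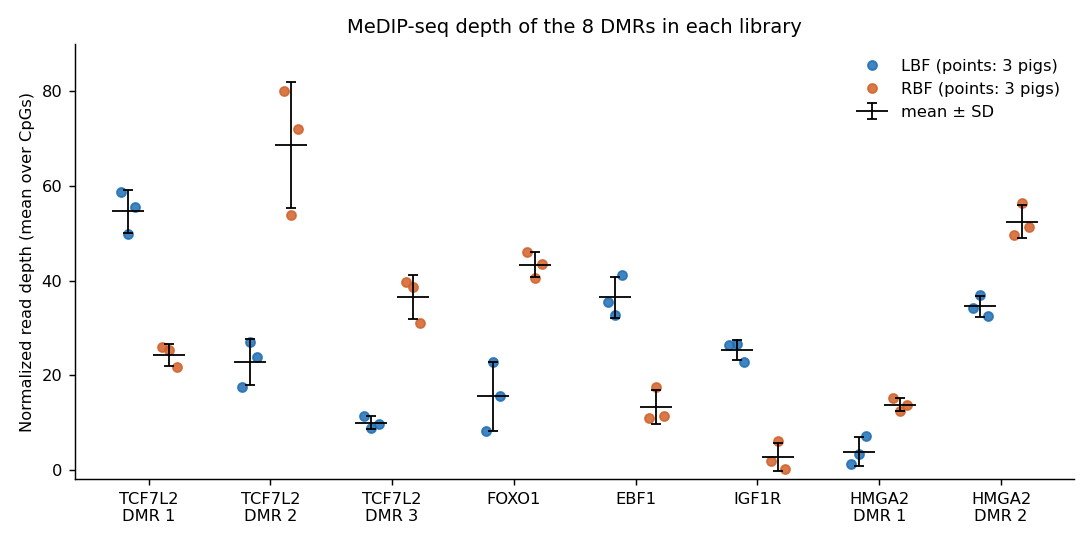
Normalized MeDIP-seq read depth (y axis, mean over the CpGs of a DMR) of the 8 DMRs (x axis), with 1 point per pig and the mean ± SD of 3 pigs per breed. The points of LBF and RBF do not overlap at any of the 8, as at 100% of all listed DMRs. LBF lies above RBF at IGF1R, EBF1 and the first DMR of TCF7L2 only.

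IGF1R, the receptor, had the largest log2 fold change of the 8 DMRs. Its DMR on chromosome 1 (153532289 to 153532426, Sscrofa10.2, 7 CpGs) lay in an internal intron of transcript ENSSSCT00000005311 and in the first intron of ENSSSCT00000033584. LBF pigs had depths of 26.3, 26.7 and 22.9, and RBF pigs had 1.96, 6.02 and 0.184. All 3 LBF libraries were high and close to each other, whereas the RBF libraries were near 0 and spread widely for their level. The lowest value, in RBF replicate 3, amounted to 1 CpG coverage, that is 1 read over 1 of the 7 CpGs, against 9 and 27 in the other two RBF libraries and 135 to 157 in LBF. LBF averaged 25.3 ± 2.11 and RBF 2.72 ± 2.99 (SD, n = 3 pigs each), a ratio of 9.30. The log2 fold change of 3.17 (standard error 0.61, limma adjusted p = 0.0034) was above that of 92.8% of all DMRs. Leaving out RBF replicate 3 gave 2.53 and leaving out RBF replicate 2 gave 3.81, so the fold rests on how close to 0 the RBF libraries were. It also moved with the pseudocount, to 3.53 with 0.5 and 2.04 with 5 in place of 1. The call ended with equal library medians (log2 fold change 2.15, adjusted p = 0.055).

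FOXO1, the transcription factor downstream of the receptor, differed in the opposite direction. Its DMR lay in the first intron (chromosome 11, 15557659 to 15557767, 6 CpGs, transcript ENSSSCT00000010267). LBF pigs had depths of 8.22, 22.8 and 15.6, and RBF pigs had 46.0, 40.6 and 43.5. Here the RBF libraries were tight and the LBF libraries ranged from 42 to 106 CpG coverages. The highest LBF library was 17.8 depth units below the lowest RBF library. A gap between the breeds is a property of 100% of the listed DMRs. LBF averaged 15.5 ± 7.28 and RBF 43.3 ± 2.67, so that the log2 fold change was -1.52 with a standard error of 0.36 (adjusted p = 0.0061). Leaving out LBF replicate 1 gave -1.16 and leaving out LBF replicate 2 gave -1.84, with adjusted p of at most 0.021 in all leave-one-out fits. It was -2.96 with equal library medians. The share of genes with a lone DMR that was lower in LBF was 18.5% (334 of 1805 genes).

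TCF7L2, the Wnt effector, held DMRs of both directions within 119 kb of chromosome 14, all in internal introns of transcript ENSSSCT00000011635. The first (134611689 to 134611771, 5 CpGs) was higher in LBF, with depths of 58.7, 49.8 and 55.5 against 25.9, 25.3 and 21.7 in RBF. The second (134695131 to 134695204, 6 CpGs) was lower, with 17.4, 27.1 and 23.9 in LBF against 80.0, 53.9 and 72.1 in RBF. The third (134730861 to 134731060, 9 CpGs) was lower too, with 11.5, 8.88 and 9.62 in LBF against 39.6, 38.7 and 31.1 in RBF. The breeds thus traded places between the first DMR and the other two, and by mean depth in RBF the second DMR was the most covered of all 8. The log2 fold changes were 1.14 (standard error 0.19, adjusted p = 0.0024), -1.55 (0.26, 0.0024) and -1.77 (0.21, 0.0014). LBF against RBF averaged 54.7 ± 4.55 against 24.3 ± 2.28 at the first DMR, 22.8 ± 4.92 against 68.6 ± 13.4 at the second, and 10.0 ± 1.34 against 36.5 ± 4.66 at the third (SD, n = 3 pigs each). Under equal library medians the first DMR turned to -0.32 and was not called (adjusted p = 0.32), and the others were at -3.01 and -3.19.

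A ratio of depths within a library does not depend on how that library was scaled. The depth of the first TCF7L2 DMR over that of the third was 5.11, 5.60 and 5.77 for LBF pigs but 0.654, 0.654 and 0.697 for RBF pigs. These ratios were nearly constant within each breed (5.50 ± 0.341 and 0.668 ± 0.0248). The first over the second gave 3.37, 1.84 and 2.32 for LBF pigs but 0.324, 0.470 and 0.301 for RBF pigs. In each LBF library the first DMR was therefore the most covered of the 3 and in each RBF library it was the least covered. The second over the third, which lie 35656 bp apart and are both lower in LBF, gave 1.52, 3.05 and 2.49 for LBF pigs and 2.02, 1.39 and 2.32 for RBF pigs, and the breeds overlapped. The DMRs were listed because the breeds differ in them, so these ratios carry no test. Of the 182 genes with 3 DMRs, 72 (39.6%) had DMRs of both directions and 18 (9.89%) had at least 2 DMRs lower in LBF, as TCF7L2 did.

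**Figure D2:**
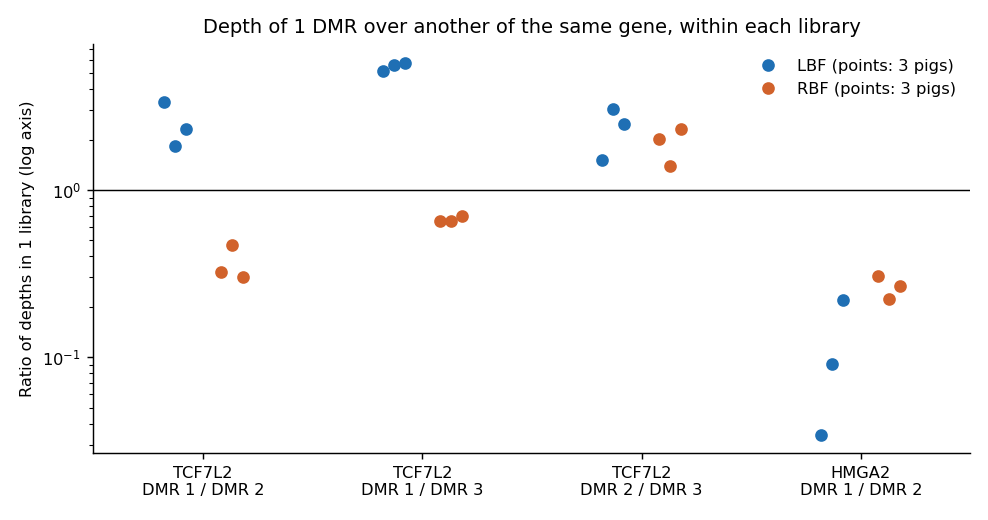
Ratio of the depths of a pair of DMRs of the same gene within each library (y axis, log scale), for 3 pairs in TCF7L2 and 1 pair in HMGA2 (x axis), with 1 point per pig. The ratios of the first TCF7L2 DMR to the other two lie above 1 in all LBF libraries and below 1 in all RBF libraries.

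EBF1 had a DMR in an internal intron (chromosome 16, 70513325 to 70513530, 5 CpGs, transcript ENSSSCT00000018559). The table carries no pig symbol for this transcript and names it by its human homologue. LBF pigs had depths of 35.5, 32.7 and 41.3, and RBF pigs had 11.0, 17.5 and 11.4. With 5 CpGs in 206 bp it was the sparsest of the 8 DMRs, and each library had at least 36 CpG coverages there. LBF averaged 36.5 ± 4.36 and RBF 13.3 ± 3.66 (SD, n = 3 pigs each), a ratio of 2.75. The log2 fold change, 1.42 with a standard error of 0.25 (adjusted p = 0.0026), lay below the median of all DMRs (1.64), and with equal library medians it became -0.011 (adjusted p = 0.98). The size of the EBF1 difference was thus close to the general difference in depth between the LBF and RBF libraries over the listed regions.

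HMGA2, the chromatin protein of growth control, had both of its DMRs lower in LBF, 8911 bp apart in internal introns of transcript ENSSSCT00000000509 on chromosome 5. At the first (33454528 to 33454621, 5 CpGs) LBF pigs had depths of 1.17, 3.35 and 7.12, and RBF pigs had 15.2, 12.5 and 13.7. This was the least covered of the 8 DMRs, with 5, 13 and 30 CpG coverages for LBF pigs against 40 to 53 for RBF pigs. At the second (33463533 to 33463804, 9 CpGs) LBF pigs had 34.2, 37.0 and 32.6, and RBF pigs had 49.6, 56.4 and 51.3, from at least 247 CpG coverages per library. The first DMR therefore had the larger fold on few reads, and the second a small fold on many reads. The log2 fold changes were -1.80 (standard error 0.47, adjusted p = 0.0088) and -0.59 (standard error 0.18, adjusted p = 0.017). LBF against RBF averaged 3.88 ± 3.01 against 13.8 ± 1.37 at the first DMR and 34.6 ± 2.22 against 52.4 ± 3.54 at the second (SD, n = 3 pigs each). Only 2.11% of the DMRs called lower in LBF had a smaller change than the second. Its call ended without LBF replicate 1 (adjusted p = 0.053) and without LBF replicate 3 (0.063), and also with the replicate number as a block (0.058). The changes were -3.08 and -2.05 with equal library medians.

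The depth of the first HMGA2 DMR over that of the second was 0.0344, 0.0907 and 0.219 for LBF pigs and 0.307, 0.222 and 0.266 for RBF pigs. The highest LBF ratio nearly met the lowest RBF ratio. The ratio averaged 0.115 ± 0.0944 for LBF pigs and 0.265 ± 0.0428 for RBF pigs. The distance between these means was smaller than the range among the LBF pigs. Of the 478 genes with 2 DMRs, 18 (3.77%) had both lower in LBF, 326 had both higher and 134 had DMRs of both directions.

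**Figure D3:**
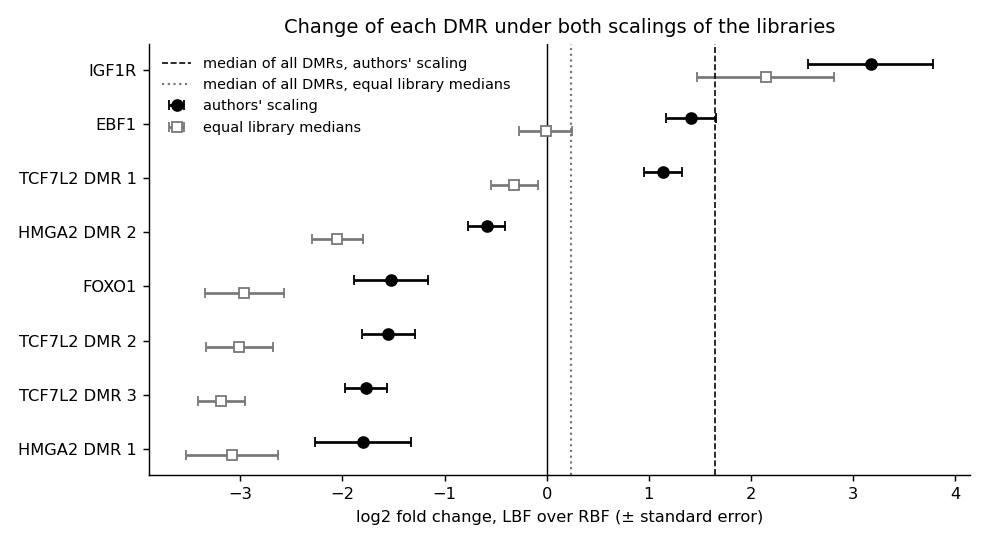
The log2 fold change, LBF over RBF, with its standard error (x axis) of the 8 DMRs (y axis), under the authors' scaling (filled) and with equal library medians (open); dashed and dotted lines mark the median of all DMRs under each. EBF1 and the first DMR of TCF7L2 fall to -0.011 and -0.32 with equal library medians.

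In order of their log2 fold change, IGF1R (3.17) came first, followed by EBF1 (1.42), the first TCF7L2 DMR (1.14), the second HMGA2 DMR (-0.59), FOXO1 (-1.52), TCF7L2 DMRs 2 and 3 (-1.55 and -1.77) and the first HMGA2 DMR (-1.80). IGF1R stood apart from EBF1 by 1.76, which was over 2 combined standard errors (of 0.66). EBF1 and the first TCF7L2 DMR differed by 0.28 (combined standard error 0.31) and could not be ordered. The same held for the 4 DMRs from FOXO1 to the first of HMGA2, which lay within 0.22 of their neighbors in the order. The second HMGA2 DMR was separated from FOXO1 by 0.94 (combined standard error 0.40). The combined errors treat DMRs as independent although they share libraries.

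The surroundings of the 5 genes differed in how many other DMRs they held. Within 250 kb of the outermost DMRs of each gene there were 15 further DMRs, all intergenic, with 14 higher and 1 lower in LBF, where 84.5% of all DMRs were higher, so mostly higher neighbors are usual in this table. TCF7L2 had 10 of them, of which 9 were higher and 8 lay on the side of the higher coordinates. An exception there (chromosome 14, 134858053 to 134858320, 9 CpGs) had a depth of 18.2 ± 6.51 against 89.5 ± 8.01 for LBF against RBF and a log2 fold change of -2.28 (adjusted p = 0.0015), a larger fall than in either lower TCF7L2 DMR. The other intergenic DMRs around the lower TCF7L2, FOXO1 and HMGA2 introns were higher in LBF. Around FOXO1 all 4 were higher, and one (chromosome 11, 15385896 to 15386111) averaged 88.2 ± 9.75 against 7.84 ± 5.69 (3.55 on the log2 scale). HMGA2 had a lone neighbor at 33530113 to 33530233 with mean depths of 11.8 against 3.08 (1.71).

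IGF1R and EBF1 had no other DMR within 250 kb. The nearest to the IGF1R DMR was intergenic and 326705 bp away (chromosome 1, 153205456 to 153205583). It was lower in LBF, with mean depths of 24.6 against 46.3 (-0.88). The nearest to the EBF1 DMR lay 1205254 bp away in an intron of CYFIP2, a protein of actin regulation, and was higher in LBF (log2 fold change 2.77).

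**Figure D4:**
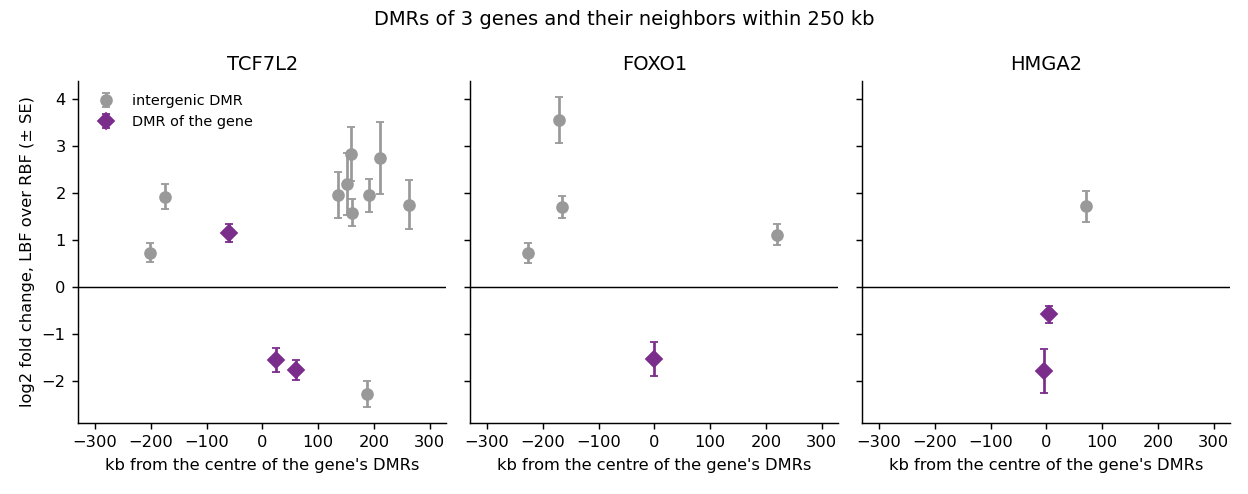
The log2 fold change, LBF over RBF, with its standard error (y axis) of DMRs by their distance in kb from the centre of the gene's own DMRs (x axis), for TCF7L2, FOXO1 and HMGA2. The DMRs of FOXO1 and HMGA2 lie below 0 and all of their intergenic neighbors above it, and around TCF7L2 9 of 10 neighbors lie above 0, as do 84.5% of all DMRs by their calls.

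Other genes of the same pathways were listed by gene symbol and counted in the same way, with depths given as LBF against RBF (mean ± SD) and log2 fold changes in parentheses, and those lower in LBF that are named were chosen after their values were seen. Of 42 adipogenic factors and cofactors other than EBF1, 9 had a DMR. Their 10 DMRs, all in introns, comprised 7 higher and 3 lower in LBF (median log2 fold change 1.07), against 84.5% and 15.1% of all DMRs. Of these, 1 was called higher and 3 lower with equal library medians. The highest log2 fold change was in NCOR1, a corepressor of nuclear receptors, where LBF averaged 45.2 ± 4.74 and RBF 8.24 ± 3.79 (2.41). TBX15, a T-box factor of adipocyte identity, was at 10.3 ± 4.33 against 36.7 ± 2.69 (-1.82).

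The relatives of EBF1 did not share a direction. EBF2, a factor of brown adipocytes, had 2 intron DMRs higher in LBF (log2 fold changes 0.90 and 1.23), the most DMRs of that list. EBF3 had an intron DMR lower in LBF, at 11.2 ± 3.04 against 34.7 ± 4.97 (-1.58, adjusted p = 0.0024). The EBF2 changes became -0.51 and -0.21 with equal library medians, neither of them called, and that of EBF3 was -3.00.

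Of 80 other genes of the Wnt and beta-catenin pathway, 10 had a DMR, with 12 DMRs higher and 2 lower in LBF (median log2 fold change 1.37), a split near the 84.5% and 15.1% of all DMRs. Under equal library medians 2 were called higher and 2 lower. An intron DMR of DKK3, of the Dickkopf family of secreted proteins, was the largest of those with a mean depth of at least 10, at 89.5 ± 5.87 against 15.7 ± 11.9 (2.68). ROR1, a receptor of Wnt ligands, had 4 intron DMRs, the most of the list, with 3 higher (1.39 to 2.71) and 1 lower (-1.16). An exon DMR of FZD10, a Frizzled receptor, was lower as well, at 15.3 ± 1.21 against 34.8 ± 3.34 (-1.14). No other member of the TCF and LEF family to which TCF7L2 belongs, and not beta-catenin itself, had a DMR under its human symbol.

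Of 49 other genes of the insulin, IGF and FOXO pathway, 9 had a DMR, with 8 DMRs higher and 2 lower in LBF (median log2 fold change 1.90), again near the 84.5% and 15.1% of all DMRs. Under equal library medians 2 were called in each direction. TSC1, a brake on the growth kinase mTOR, held both extremes 1840 bp apart on chromosome 1. Its promoter DMR was at 28.0 ± 4.23 against 2.83 ± 4.90 (3.77, standard error 0.88, adjusted p = 0.0058). Its exon DMR was at 3.40 ± 5.89 against 27.4 ± 3.59 (-3.66, standard error 0.94, adjusted p = 0.0081). The promoter depth was 0 in RBF replicates 1 and 3 and above 0 in RBF replicate 2. The exon depth was 0 in LBF replicates 1 and 2 and above 0 in LBF replicate 3. The sizes of both folds thus rest on depths of 0 and on the pseudocount. With equal library medians the exon DMR of TSC1 was called (-4.75) and its promoter DMR was not (3.02, adjusted p = 0.068). That scaling shifts all DMRs downward, so this contrast is no sign that the exon DMR is more stable. The gene of mTOR itself (MTOR) had an intron DMR lower in LBF, at 17.4 ± 2.67 against 36.4 ± 2.69 (-1.04). No listed DMR lay in the genes of the insulin receptor, of IGF1, IGF2 or of the other FOXO factors.

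Of 23 other genes of the HMGA2 and let-7 axis and of body size, only NCAPG, a condensin subunit at a locus of body size in livestock, had a DMR. It lay in an exon and was higher in LBF, at 63.7 ± 8.23 against 20.8 ± 8.58 (1.63, adjusted p = 0.0032), and its call ended with equal library medians (0.18).

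EBF1 also marks B cells, so genes of other cell types that backfat can hold were counted. Of 20 immune genes, 4 had a DMR, namely PAX5, MRC1, CD4 and CD3E, and all 8 of their DMRs were higher in LBF (median log2 fold change 1.74), where 84.5% of all DMRs were. PAX5, which acts with EBF1 in B cell development, held 4 of these (1.16 to 2.20). CD3E, a subunit of the T cell receptor complex, had the largest change, at 26.8 ± 1.12 against 0.430 ± 0.745 (4.40). The RBF depths there were 0, 0 and 1.29, so the size of this fold rests on values at or near 0. Of 20 endothelial and muscle genes, 4 had a DMR, with 4 DMRs higher and 1 lower in LBF, also near the shares over all DMRs. Both extremes lay in introns of VWF, of which the lower DMR (-0.60) was not called without LBF replicate 1 or 3 (adjusted p = 0.055 and 0.065) nor with the replicate number as a block (0.061). Under equal library medians 2 immune DMRs were called higher and 0 lower, and 0 and 1 of the endothelial and muscle DMRs. The part of cell mix in the differences of the 5 genes was not tested.

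The genes whose depth over the 6 libraries was most like that of each regulator were found by the Euclidean distance of the mean log2(depth + 1) over their DMRs, among 879 genes with at least 2 DMRs. For TCF7L2 the closest were CENPF and SPON1 (distances 0.40 and 0.49). The TCF7L2 mean joins DMRs of both directions, so likeness to it is not likeness to any single DMR of the gene. For EBF1 they were CEPT1, DYRK1A and OPRK1 (0.25, 0.27 and 0.30), and for HMGA2 they were GLRX3, FASTKD1 and HS6ST2 (0.39, 0.55 and 0.63). FOXO1 was nearest to GRAP2, TGFBI and RNU6-434P (0.74, 1.05 and 1.21), and IGF1R to RHOBTB2, RNU6-1053P and UROC1 (0.81, 1.12 and 1.42). FOXO1 and IGF1R had the farthest nearest genes, for a reason that was not tested.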

How the data were processed

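The authors aligned the MeDIP-seq reads of 3 LBF and 3 RBF libraries with SOAP2 to Sscrofa 10.2 (the build in the submitters' processing notes), left out thinly covered CpGs, and merged neighboring CpGs that differed between LBF and RBF into DMRs of at least 5 CpGs. The authors deposited, per library, a coverage signal, the normalized read depth averaged over the CpGs of each DMR. For profiles along chromosomes the study describes scaling to the mean number of reads per group, and whether the table was scaled likewise is not stated. Other deposited numbers are the length and CpG number. The authors' own means, p-value and FDR of each DMR stand in the same table and were not used.

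Every DMR entered once into a limma fit (limma 3.58.1 under R 4.3.3) of log2(depth + 1), with no covariate beside breed. Benjamini-Hochberg adjustment covered all 14163 DMRs, and calls needed an adjusted p under 0.05. The fit was checked on simulated data in which few regions differed, all of them higher in LBF. The listed regions are unlike that, so it is a check of the code and not of these calls. No count model was fitted to these scaled depths. Permuting 3 against 3 pigs allows no two-sided p below 0.10, so no exact test was run. The members and the 6 gene lists were chosen with earlier results of these data known. All DMRs of the 5 genes were named, and for each list the DMRs with the highest and lowest log2 fold change at a mean depth of at least 10 and the gene with the most DMRs. Some items that this rule names are not reported here. Names are those of human homologues in the table. No sequence of this build was used here.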

Additional observations from a re-analysis of the deposited data

How the results depend on the processing

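Of the 95 alternative values of the 8 DMRs, 89 kept their direction and their side of the threshold, 4 lost the call and 2 reversed. With equal library medians, whose zero is set by regions listed for a difference, EBF1 reversed to -0.011 and the first TCF7L2 DMR to -0.32, and the IGF1R call ended. Over all DMRs that setting called 1542 higher and 2405 lower, in place of 11966 and 2132, and 0 of the 8 DMRs higher. The higher calls of the gene lists became 1 (adipogenic factors), 2 (Wnt), 2 (insulin and IGF), 0 (body size), 2 (immune) and 0 (endothelial and muscle). The second HMGA2 DMR lost its call under the replicate block and without LBF replicate 1 or 3, with log2 fold changes of -0.63 to -0.53 over the 6 fits that leave out a library. The replicate block changed no other call of the 8. Deviations of same-numbered libraries from their breed means correlated at 0.06, -0.01 and 0.06, and those of differently numbered ones at -0.08 to 0.03. With 3 pigs per breed these values cannot decide whether the replicate numbers pair the pigs. The paper names paired t-tests in figure legends, and the library titles give no pairing. A minimum of 10 CpGs left 3465 higher and 134 lower DMRs, and none of the 8. The share lower in LBF was thus much smaller among DMRs with many CpGs than among all DMRs. A mean depth of at least 10 left out the first HMGA2 DMR. Windows of 500 and 100 kb gave 25 and 4 higher and 2 and 0 lower neighbors. Ranking by Pearson r kept 2 of the 15 nearest genes. Depth limits IGF1R in RBF and the first HMGA2 DMR in LBF, which rest on few reads.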
